A study of Mus musculus with 4 samples.

Results

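Inhibitory receptors of T cells are surface proteins that restrain an activated lymphocyte. The set described here holds 7 surface proteins, called receptors here although Entpd1 is an enzyme, and the transcription factor Tox. The 8 genes, Pdcd1, Ctla4, Lag3, Havcr2, Tigit, Cd160, Entpd1 and Tox, were given by name and found by symbol among the 32285 genes of the count matrices, with 1 row each. They were read in lymphocytes of the inflamed mouse spinal cord. The source was leukocytes (CD45+ cells) sorted from the cords of C57BL/6 animals in which experimental autoimmune encephalomyelitis (EAE) had been induced, that is an attack of T cells on myelin set off by immunisation. All animals were immunised. For the 2 Reg1-MO libraries Reg1-MOs were given intracranially on day 9, for the 2 Ctrl libraries Ctrl MO by the same route on day 9, and all cells are from day 16. Neither abbreviation is explained in the labels, which also give no age, sex or target site. MO is taken to be a morpholino (an antisense oligomer) and Reg1 to be the RNase encoded by Zc3h12a, Regnase-1, which degrades inflammatory messenger RNAs. The labels do not say whether a library is 1 animal or a pool, so p-values measure the spread between these libraries, which may be technical.

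As background, inhibitory receptors appear on T cells after antigen contact and bind ligands on other cells. Ctla4 competes with the costimulatory receptor Cd28 for Cd80 and Cd86, and Pdcd1 (PD-1) binds Cd274 and Pdcd1lg2. Lag3 binds MHC class II, Havcr2 (TIM-3) binds galectin-9 among others, Tigit binds Pvr (CD155), and Cd160 binds Tnfrsf14 (HVEM). Entpd1 (CD39) is an ectoenzyme that breaks down extracellular ATP, a first step towards adenosine. Tox is a nuclear factor known for the exhausted state of chronically stimulated CD8 T cells, in which several of these receptors are held at a high level. Regulatory T cells carry Ctla4 constitutively, and in EAE such receptors are known as brakes on the autoimmune response.

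The matrices held 29379 barcodes and 75472324 to 174552218 UMIs (unique molecular identifiers, one per captured transcript) per library. After filters on depth and mitochondrial share, which removed 1.64% to 4.26% of barcodes, and removal of 1745 likely doublets, 26853 cells were used, with medians of 9947.5 to 12103 UMIs. Pairs of libraries shared 10 to 78 cell barcodes, at most 0.945% of the smaller library, and leaving those cells out changed no call of the 8 genes. Zc3h12a, the gene that Reg1 is read as, had 106 and 118 CPM (UMIs of the gene scaled by the total UMIs of the library in that class) in Reg1-MO CD4 T-like cells, against 108 and 116 CPM in Ctrl CD4 T-like cells (log2 fold change -0.02 ± 0.10). It was called in no class, with -0.57 ± 0.25 in NK-like cells (edgeR, adjusted p = 0.428), and since a morpholino can act on translation or splicing, its transcript level need not check the labels. Among 7466 T and NK cells, clusters that were formed without the 8 genes gave 4055 CD4 T-like, 1173 CD8 T-like, 786 Foxp3 T-like and 334 NK-like cells. Names end in "-like" because they rest on transcripts alone. Since clusters were named from marker transcripts of this kind, the levels below describe the classes and do not check the names. Cd4 was at 235 to 318 CPM in the clusters named CD4 T-like. Cd8b1 was at 1036 CPM in CD8 T-like cells, Foxp3 at 321 CPM in Foxp3 T-like cells, and Ncr1 at 404 CPM in NK-like cells with Cd3e at 33.6 CPM. Another 906 T cells stayed unnamed. The Foxp3 T-like class held 363 and 152 cells in Reg1-MO libraries 1 and 2, against 118 and 153 cells in Ctrl libraries 1 and 2, so its values rest on few cells. From here on, values of a group are given in the order of library 1 and library 2.

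The genes lie on 7 chromosomes of GRCm38. Pdcd1 (chr1:94038305-94052553, minus strand) and Ctla4 (chr1:60887000-60915832, plus strand) share chromosome 1. Havcr2 lies at chr11:46454935-46481255 on the plus strand and Tigit at chr16:43648867-43664146 on the minus strand. Lag3 lies at chr6:124904361-124911705, Tox at chr4:6686353-6991557 and Cd160 at chr3:96798763-96829351, all on the minus strand, and Entpd1 at chr19:40612366-40741602 on the plus strand. Ctla4 and Entpd1 overlap annotated genes on their own strand (Rpl18-ps1, and Gm16027, Gm8783 and AC166063.1), so some of their reads could have been assigned elsewhere. The promoters of Ctla4, Havcr2 and Tigit are shown because these are the 3 genes for which both Reg1-MO libraries lay below both Ctrl libraries in CD4 T-like cells. Each is 300 bases (250 before to 50 after the start) from RefSeq on GRCm38.p6, written 5′ to 3′ on the gene's strand. Capitals mark GGAAA, the core of sites bound by NFAT factors, and TGANTCA, a site of AP-1 factors, on either strand.
Ctla4: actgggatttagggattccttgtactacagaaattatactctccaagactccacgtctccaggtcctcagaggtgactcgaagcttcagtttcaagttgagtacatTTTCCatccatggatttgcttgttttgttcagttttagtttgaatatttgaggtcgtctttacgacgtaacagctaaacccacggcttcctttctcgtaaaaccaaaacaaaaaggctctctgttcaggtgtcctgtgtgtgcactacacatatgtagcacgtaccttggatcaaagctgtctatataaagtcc
Havcr2: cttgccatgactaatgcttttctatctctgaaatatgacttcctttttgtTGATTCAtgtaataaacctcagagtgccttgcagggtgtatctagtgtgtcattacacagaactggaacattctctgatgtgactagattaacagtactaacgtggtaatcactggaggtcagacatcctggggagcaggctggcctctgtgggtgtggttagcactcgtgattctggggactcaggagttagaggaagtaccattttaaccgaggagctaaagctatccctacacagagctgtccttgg
Tigit: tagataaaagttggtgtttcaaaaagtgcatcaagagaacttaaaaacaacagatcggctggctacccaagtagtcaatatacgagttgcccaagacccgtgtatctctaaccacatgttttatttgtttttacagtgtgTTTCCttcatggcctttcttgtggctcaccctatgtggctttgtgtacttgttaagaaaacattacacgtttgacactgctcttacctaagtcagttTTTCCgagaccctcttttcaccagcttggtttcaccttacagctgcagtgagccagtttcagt
The Ctla4 window is chr1:60908775-60909074 on the plus strand, the Havcr2 window chr11:46454681-46454980 on the plus strand, and the Tigit window chr16:43664135-43664434 on the minus strand. GGAAA occurred once for Ctla4, 2 times for Tigit and not in the Havcr2 window, which held 1 TGANTCA. Of 32851 promoters of the same length, 61.3% held GGAAA, 7.81% TGANTCA and 1.51% AAAGGTCA, a site of single NR4A factors that was in none of the 3 windows. The matches are a description of these letters. Promoters of 6 of the 8 genes were matched, all but Lag3 and Tox.

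Each gene had its own order of levels across cell classes, given here as the mean CPM ± SD over the 4 libraries of both treatments (n = 4), for the 7 classes with at least 50 cells in every library. Ctla4 was highest in Foxp3 T-like cells (2837 ± 277 CPM) with no overlap of libraries with the next classes, CD4 T-like (573 ± 99.9) and CD8 T-like (511 ± 71.8), which overlapped each other. NK-like cells followed with 107 ± 13.6 CPM, and neutrophil-like, microglia-like and monocyte and macrophage-like cells were at most 6.59 CPM in every library. Tox was likewise highest in Foxp3 T-like cells (703 ± 170 CPM), followed by NK-like (305 ± 91.7) and CD8 T-like cells (243 ± 127), which overlapped, and CD4 T-like cells (97.3 ± 44.7), which overlapped CD8 T-like cells. Its mean in each myeloid class was at most 0.64 CPM. Pdcd1 averaged 120 ± 33.1 CPM in CD8 T-like, 77.3 ± 28.8 in Foxp3 T-like and 53.2 ± 10.8 in CD4 T-like cells, neighbours that overlapped. Microglia-like cells followed with 12.1 ± 8.75 CPM, up to 24.0 CPM in a library, and overlapped NK-like cells (3.03 ± 2.35).

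Tigit did not separate the lymphocyte classes, with 84.5 ± 22.5 CPM in NK-like, 77.0 ± 26.1 in CD8 T-like, 63.1 ± 30.3 in Foxp3 T-like and 62.9 ± 22.2 in CD4 T-like cells, while no myeloid class exceeded 0.761 CPM in a library. Cd160 was highest on average in CD8 T-like (82.6 ± 28.1 CPM) and NK-like cells (64.7 ± 14.6), above CD4 T-like (23.9 ± 10.5) and Foxp3 T-like cells (2.83 ± 0.47). The CD4 T-like average covers a subcluster, described below, whose Cd160 levels overlapped those of CD8 T-like and NK-like cells. The remaining 3 genes were shared with myeloid cells, though not with every class. Lag3 averaged only 1.09 CPM in monocyte and macrophage-like and 1.21 CPM in neutrophil-like cells, and Havcr2 1.76 CPM in neutrophil-like cells. Lag3 averaged 187 ± 88.9 CPM in microglia-like cells, 81.9 ± 73.3 in Foxp3 T-like, 65.2 ± 21.1 in CD8 T-like and 61.2 ± 23.1 in CD4 T-like cells, each overlapping the next, and from 9.33 to 22.2 CPM in the libraries of NK-like cells, below them all. Havcr2 averaged 138 ± 11.6 CPM in microglia-like and 114 ± 39.6 CPM in CD8 T-like cells, which overlapped, and 4.19 ± 2.93 CPM in NK-like cells. Entpd1 was highest in microglia-like cells (405 ± 33.8 CPM), then neutrophil-like (302 ± 20.8) and monocyte and macrophage-like cells (231 ± 57.3), and lowest in CD4 T-like cells (33.5 ± 2.72).

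**Figure D1:**
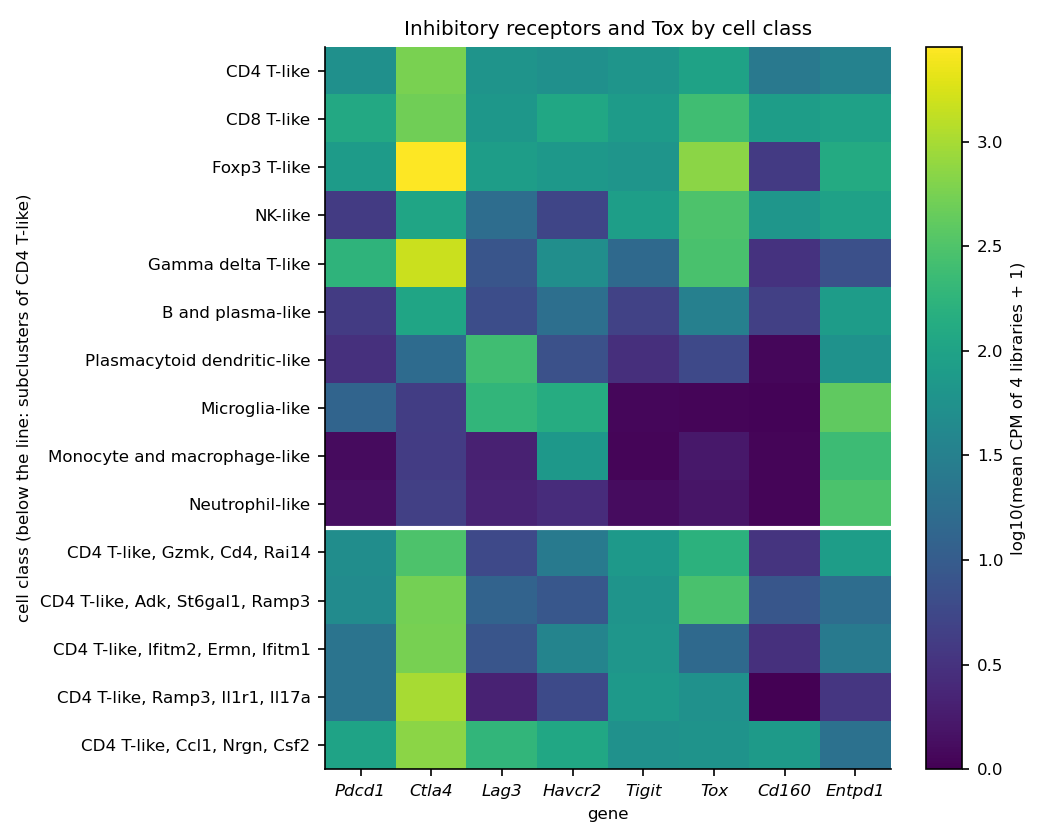
Level of each gene (columns) in each cell class (rows), as log10 of the mean CPM of 4 libraries plus 1, with the subclusters of CD4 T-like cells below the white line. Ctla4 is brightest in Foxp3 T-like cells (2837 CPM), Lag3 and Entpd1 extend into microglia-like cells (187 and 405 CPM), and Lag3 among CD4 T-like cells is concentrated in the Ccl1, Nrgn, Csf2 subcluster.

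Within CD4 T-like cells the receptors were unevenly spread over 5 subclusters, which are called here by their leading genes. The subcluster led by Ccl1, Nrgn and Csf2 (Csf2 encodes GM-CSF, a cytokine that T cells need to cause EAE) had Lag3 at 255 and 131 CPM in Reg1-MO libraries, against 186 and 183 CPM in Ctrl libraries. The other 4 subclusters had at most 18.1 CPM of Lag3 in any library. The same subcluster had Cd160 at 91.1 and 85.6 CPM in Reg1-MO libraries, against 44.0 and 79.4 CPM in Ctrl libraries, and the other 4 subclusters had at most 14.8 CPM. Tox was highest in the subcluster led by Adk and St6gal1, at 283 and 309 CPM in Reg1-MO libraries, against 275 and 288 CPM in Ctrl libraries. It was lowest in the one led by Ifitm2 and Ermn, at 14.2 and 18.4 CPM in Reg1-MO libraries, against 13.9 and 10.5 CPM in Ctrl libraries. The make-up of the class differed between libraries: the Ccl1, Nrgn, Csf2 subcluster was 20.8% and 18.3% of CD4 T-like cells in Reg1-MO libraries, against 18.9% and 37.9% in Ctrl libraries, so Ctrl 2 stood apart.

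The main comparison was Reg1-MO over Ctrl in each lymphocyte class, on UMIs summed per library. Among CD4 T-like cells, Ctla4, Havcr2 and Tigit each had their 2 Reg1-MO values below their 2 Ctrl values, and Tox its 2 Reg1-MO values above (4 of 8 genes without overlap of libraries, beside 47.6% of all genes tested there). CD8 T-like cells had Cd160 lower and Entpd1 higher without overlap (2 of 8 genes, beside 40.2% of all genes). None of the 8 genes passed an adjusted p of 0.05 with edgeR in any class. Of all genes tested, 0.0812% were called in CD4 T-like, 0% in CD8 T-like, 0.484% in Foxp3 T-like and 0.325% in NK-like cells, and 0% in all T and NK cells summed. At an unadjusted p under 0.05 the counts over all genes were 1490 of 11080, 747 of 9546, 1059 of 8683, 626 of 5853 and 1286 of 12549. DESeq2 called 15 genes in CD8 T-like cells (0.394% of those it gave an adjusted p) and 65 in all T and NK cells summed. In CD4 T-like cells DESeq2 called 2 of the 4 that it gave an adjusted p, Ctla4 (adjusted p = 0.0288) and Tigit (adjusted p = 0.0475), both lower, against adjusted p = 0.186 and 0.219 with edgeR. It called 77 genes there, 2.64% of the 2917 that it gave an adjusted p. Without the filter on low counts edgeR called 4 of the 8 in CD4 T-like cells, Ctla4, Havcr2 and Tigit lower and Tox higher, and 614 genes in all (3.26% of 18824).

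All 8 genes passed the filter on low counts in CD4 T-like and CD8 T-like cells, 7 in Foxp3 T-like and 5 in NK-like cells. Groups did not overlap for 1 of 7 genes in Foxp3 T-like cells (43.6% of all genes), 3 of 5 in NK-like cells (41.9%) and 2 of 8 in all T and NK cells summed (45.1%). With 5 to 8 genes a class, none of these counts is read as particular to the set. The median log2 fold change of the genes was -0.14, 0.14, -0.17 and -0.38 in CD4 T-like, CD8 T-like, Foxp3 T-like and NK-like cells, and that of all genes tested was within 0.013 of 0.

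**Figure D2:**
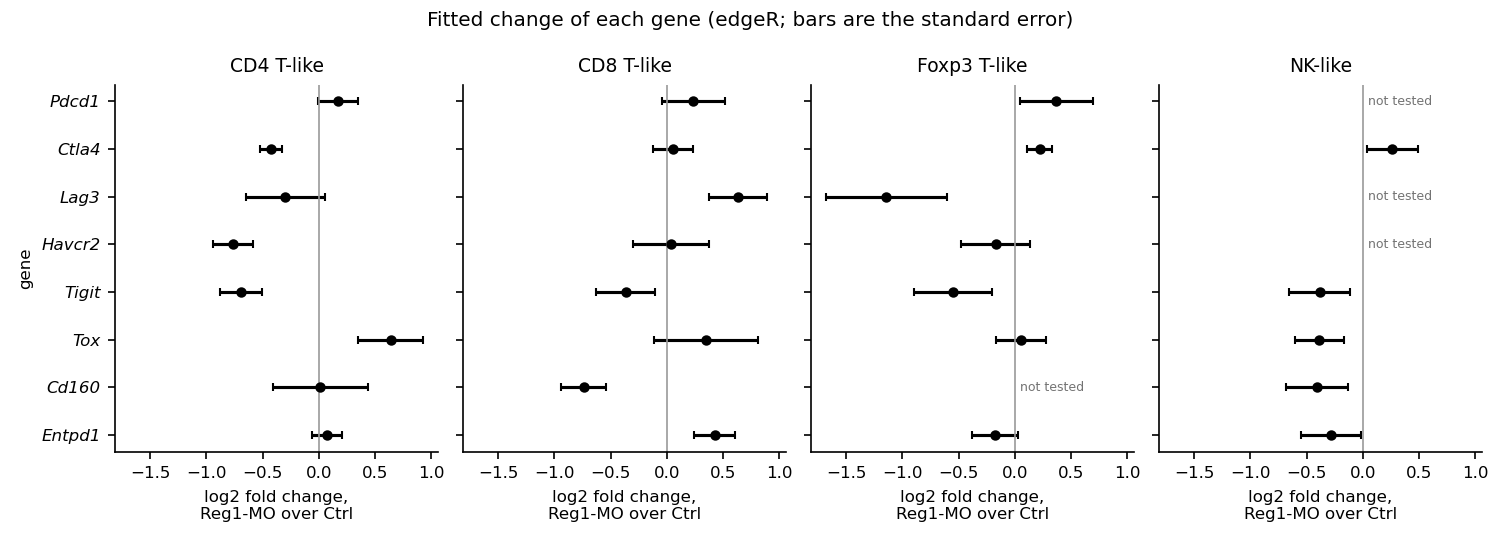
Fitted log2 fold change, Reg1-MO over Ctrl, of each gene in 4 lymphocyte classes (points), with bars of 1 standard error from edgeR (n = 2 libraries each). Ctla4, Havcr2 and Tigit lie left of 0 in CD4 T-like cells (-0.43, -0.76 and -0.69), Cd160 in CD8 T-like cells (-0.74) and Lag3 in Foxp3 T-like cells (-1.14, the widest bar).

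Ctla4, the brake on costimulation, had 494 and 489 CPM in Reg1-MO CD4 T-like cells, against 614 and 695 CPM in Ctrl CD4 T-like cells. The 2 Reg1-MO libraries were close to each other and below both Ctrl libraries, with a log2 fold change of -0.43 ± 0.10 (SE). In Foxp3 T-like cells Ctla4 had 3038 and 3005 CPM in Reg1-MO libraries, against 2437 and 2869 CPM in Ctrl libraries (log2 fold change 0.22 ± 0.11, adjusted p = 0.464). There both Reg1-MO libraries were above both Ctrl libraries. CD8 T-like cells had 568 and 460 CPM in Reg1-MO libraries, against 439 and 577 CPM in Ctrl libraries, with overlap. NK-like cells had 125 and 106 CPM in Reg1-MO libraries, against 105 and 92.4 CPM in Ctrl libraries. In the main comparison edgeR called Ctla4 in no class. Each library was also left out in turn, with the lone library of its group assumed to vary like the others. The log2 fold change was then -0.51 to -0.34 in CD4 T-like and 0.12 to 0.35 in Foxp3 T-like cells. Over all alternatives the adjusted p in CD4 T-like cells ranged between 0.00399 and 0.733.

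The treatment difference of Ctla4 itself differed between Foxp3 T-like and CD4 T-like cells. The log2 fold change was 0.70 ± 0.09 higher in Foxp3 T-like cells (interaction in edgeR, adjusted p = 0.0113), 1 of 7 genes tested here that passed, beside 0.109% of all 11002 genes. Leaving out each library in turn kept it between 0.67 and 0.73. The call was lost without the Ccl1, Nrgn, Csf2 subcluster (0.42 ± 0.12, adjusted p = 0.226) and without cells that held Mki67 or Top2a UMIs (0.52 ± 0.11, adjusted p = 0.226), 2 settings added after the data were seen. No other alternative lost it, and over all of them the adjusted p ranged from 1.86e-08 to 0.226. Against CD4 T-like cells the difference was 0.50 ± 0.12 for CD8 T-like (adjusted p = 0.434) and 0.71 ± 0.23 for NK-like cells (adjusted p = 0.304), where none of the 8 and 5 genes tested passed (edgeR), beside 0.00924% and 0.257% of all genes. In CD8 T-like cells it was called without Ctrl 2 (adjusted p = 0.00417) and without the filter on low counts (adjusted p = 0.00770). In NK-like cells it was called when classes came from a gate on UMIs of marker genes (1.67 ± 0.31, adjusted p = 0.00701). These comparisons share the CD4 T-like cells.

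The lower Ctla4 level of CD4 T-like cells was not found in every subcluster. Cells of the Ccl1, Nrgn, Csf2 subcluster had 455 and 652 CPM in Reg1-MO libraries, against 791 and 940 CPM in Ctrl libraries. The Gzmk and Cd4 subcluster had 283 and 250 CPM in Reg1-MO libraries, against 363 and 336 CPM in Ctrl libraries. The Ifitm2 and Ermn subcluster had 541 and 481 CPM in Reg1-MO libraries, against 584 and 599 CPM in Ctrl libraries. In these 3 the groups did not overlap, beside 47.6% of all genes tested in the whole CD4 T-like class. Il17a was among the leading genes of both the Ccl1, Nrgn, Csf2 subcluster and the Ramp3 and Il1r1 subcluster. The Ramp3 and Il1r1 subcluster had 1109 and 615 CPM in Reg1-MO libraries, against 1214 and 1010 CPM in Ctrl libraries, with overlap. The Adk and St6gal1 subcluster went the other way, with 601 and 624 CPM in Reg1-MO libraries, against 455 and 450 CPM in Ctrl libraries. Without the Ccl1, Nrgn, Csf2 subcluster the log2 fold change in CD4 T-like cells was -0.16 ± 0.11 (adjusted p = 0.568), and within it alone -0.69 ± 0.19 (adjusted p = 0.265), both settings added after the data were seen.

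**Figure D3:**
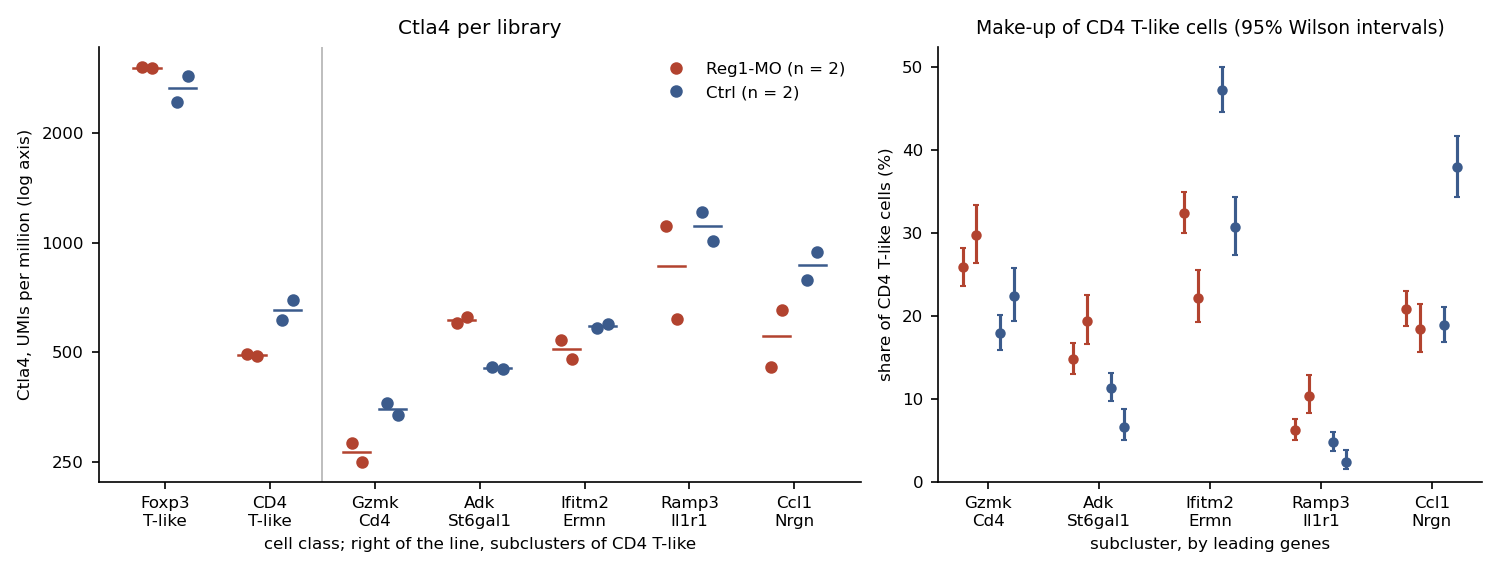
Left, Ctla4 in CPM (log axis) per library (points) with the group mean (lines), for Foxp3 T-like and CD4 T-like cells and, right of the grey line, the 5 subclusters of CD4 T-like cells. Right, share of CD4 T-like cells in each subcluster with 95% Wilson intervals, which cover counting error only. Reg1-MO points lie above Ctrl points in Foxp3 T-like cells and in the Adk, St6gal1 subcluster, and the Ccl1, Nrgn subcluster holds 37.9% of cells in Ctrl 2.

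Pdcd1, the receptor PD-1, overlapped between the groups in each of the 3 T-like classes tested. CD4 T-like cells had 45.2 and 68.7 CPM in Reg1-MO libraries, against 46.7 and 52.2 CPM in Ctrl libraries (log2 fold change 0.17 ± 0.18, adjusted p = 0.722). CD8 T-like cells had 122 and 131 CPM in Reg1-MO libraries, against 74.1 and 152 CPM in Ctrl libraries (0.24 ± 0.28). Foxp3 T-like cells had 61.3 and 114 CPM in Reg1-MO libraries, against 48.7 and 84.8 CPM in Ctrl libraries (0.37 ± 0.32, adjusted p = 0.721). The direction turned in CD4 T-like cells without Reg1-MO 2 (-0.12), in CD8 T-like cells without Ctrl 1 (-0.24) and in Foxp3 T-like cells without Reg1-MO 2 (-0.06), while without Ctrl 2 Foxp3 T-like cells reached an adjusted p of 0.0261. NK-like cells held 5 and 0 UMIs in Reg1-MO libraries, against 2 and 1 in Ctrl libraries, and were not tested.

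Lag3, the receptor of MHC class II, overlapped between the groups in CD4 T-like, CD8 T-like and Foxp3 T-like cells. In Foxp3 T-like cells it had 59.6 and 39.5 CPM in Reg1-MO libraries, against 37.7 and 191 CPM in Ctrl libraries (log2 fold change -1.14 ± 0.54, adjusted p = 0.436). Only Ctrl 2 was high there: without it the change was 0.49 (adjusted p = 0.379), and without Ctrl 1 it was -1.84 (adjusted p = 4.71e-13). CD8 T-like cells had 94.0 and 59.3 CPM in Reg1-MO libraries, against 43.5 and 64.1 CPM in Ctrl libraries (0.63 ± 0.26, adjusted p = 0.624). CD4 T-like cells had 75.5 and 31.6 CPM in Reg1-MO libraries, against 54.8 and 82.9 CPM in Ctrl libraries (-0.30 ± 0.35, adjusted p = 0.751), which turned to 0.16 without Reg1-MO 2 and 0.01 without Ctrl 2. The difference between CD8 T-like and CD4 T-like cells was 0.91 ± 0.20 (adjusted p = 0.312), and passed without Reg1-MO 1 (adjusted p = 0.0445), without Ctrl 1 (0.0125) and without Ctrl 2 (0.00921). Between Foxp3 T-like and CD4 T-like cells it was -0.60 ± 0.40 (adjusted p = 0.726), 0.50 without Ctrl 2 and -1.24 without Ctrl 1 (adjusted p = 0.000844). NK-like cells held 9 and 9 UMIs in Reg1-MO libraries, against 7 and 7 in Ctrl libraries, and were not tested.

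Havcr2, or TIM-3, had 42.6 and 34.8 CPM in Reg1-MO CD4 T-like cells, against 55.1 and 78.7 CPM in Ctrl CD4 T-like cells (log2 fold change -0.76 ± 0.18, adjusted p = 0.190). Both Reg1-MO libraries were lower. The adjusted p was 7.78e-05 without Ctrl 1 and 0.0358 without Ctrl 2, and DESeq2 gave no adjusted p. With all libraries kept, the log2 fold change lay between -0.82 and -0.46 over the alternatives. Myeloid cells also express Havcr2, and 13 myeloid markers summed to 766 and 542 CPM in Reg1-MO CD4 T-like cells, against 869 and 964 CPM in Ctrl CD4 T-like cells, with no marker at 0. With the 20% of T and NK cells richest in those markers left out of each library, the change was -0.75. That setting does not remove free RNA spread over all cells, and the part of such RNA was not tested. The markers include S100a8 and S100a9, genes of neutrophils, and neutrophil-like cells averaged only 1.76 CPM of Havcr2. In CD8 T-like cells Havcr2 had 147 and 73.9 CPM in Reg1-MO libraries, against 85.6 and 148 CPM in Ctrl libraries, with 1 high and 1 low library in each group. Foxp3 T-like cells had 54.1 and 75.4 CPM in Reg1-MO libraries, against 46.9 and 97.9 CPM in Ctrl libraries. The difference between CD8 T-like and CD4 T-like cells was 0.83 ± 0.20 (adjusted p = 0.431, and 0.000901 without Ctrl 2). Between Foxp3 T-like and CD4 T-like cells it was 0.68 ± 0.26 (adjusted p = 0.449, and 0.0386 without Reg1-MO 1).

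Tigit had 50.5 and 45.0 CPM in Reg1-MO CD4 T-like cells, against 61.7 and 94.5 CPM in Ctrl CD4 T-like cells (log2 fold change -0.69 ± 0.19). Its group mean was lower in all 5 CD4 subclusters, in 3 of them without overlap. The subclusters come from the same 4 libraries, and 47.6% of all genes tested in the whole CD4 T-like class did not overlap. That share was not computed within subclusters. Without Ctrl 1 the adjusted p was 6.22e-05, and over all other alternatives run in CD4 T-like cells, without leaving out a library, the change lay between -0.74 and -0.57. CD8 T-like cells had 63.5 and 66.6 CPM in Reg1-MO libraries, against 61.8 and 116 CPM in Ctrl libraries (-0.37 ± 0.26, adjusted p = 0.760, turning to 0.08 without Ctrl 2). Foxp3 T-like cells had 45.5 and 57.1 CPM in Reg1-MO libraries, against 42.3 and 108 CPM in Ctrl libraries (-0.55 ± 0.35, adjusted p = 0.596). Without Ctrl 2 that value was 0.29, and without Ctrl 1 it was -1.06 (adjusted p = 8.49e-05), so Ctrl 2 was the high library in every T cell class. NK-like cells had 89.1 and 51.7 CPM in Reg1-MO libraries, against 103 and 94.8 CPM in Ctrl libraries (-0.38 ± 0.27, adjusted p = 0.658). Summed over all T and NK cells the change was -0.61 ± 0.20 (adjusted p = 0.446, and 0.0164 without Ctrl 1).

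Cd160, the receptor of HVEM, had 71.7 and 47.8 CPM in Reg1-MO CD8 T-like cells, against 104 and 107 CPM in Ctrl CD8 T-like cells. Both Ctrl libraries were close together and above both Reg1-MO libraries (log2 fold change -0.74 ± 0.20, adjusted p = 0.485), and the change stayed negative when each library was left out (-1.14 to -0.50). NK-like cells had 58.0 and 51.7 CPM in Reg1-MO libraries, against 63.8 and 85.3 CPM in Ctrl libraries (-0.41 ± 0.27, adjusted p = 0.646), again without overlap. CD4 T-like cells had 27.4 and 18.7 CPM in Reg1-MO libraries, against 12.7 and 36.8 CPM in Ctrl libraries. Their log2 fold change of 0.01 ± 0.42 was -0.37 without Reg1-MO 1, -0.65 without Ctrl 1 and 0.88 (adjusted p = 0.00857) without Ctrl 2. The difference between CD8 T-like and CD4 T-like cells was -0.89 ± 0.35 (adjusted p = 0.712), and -1.61 (adjusted p = 5.52e-08) without Ctrl 2. Foxp3 T-like cells held 9 and 3 UMIs in Reg1-MO libraries, against 3 and 4 in Ctrl libraries, and were not tested.

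Entpd1, the ectoenzyme CD39, had 114 and 93.3 CPM in Reg1-MO CD8 T-like cells, against 70.2 and 91.7 CPM in Ctrl CD8 T-like cells (log2 fold change 0.43 ± 0.18, adjusted p = 0.634). The groups lay close together and did not overlap. CD4 T-like cells had 37.4 and 31.2 CPM in Reg1-MO libraries, against 32.6 and 32.6 CPM in Ctrl libraries (0.07 ± 0.13), the lowest level of the classes. Foxp3 T-like cells had 124 and 110 CPM in Reg1-MO libraries, against 108 and 164 CPM in Ctrl libraries (-0.18 ± 0.21, and 0.16 without Ctrl 2). NK-like cells had 105 and 59.1 CPM in Reg1-MO libraries, against 105 and 109 CPM in Ctrl libraries. Neutrophil-like and microglia-like cells held more Entpd1 than any lymphocyte class, and the part of free RNA in the lymphocyte counts was not tested.

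**Figure D4:**
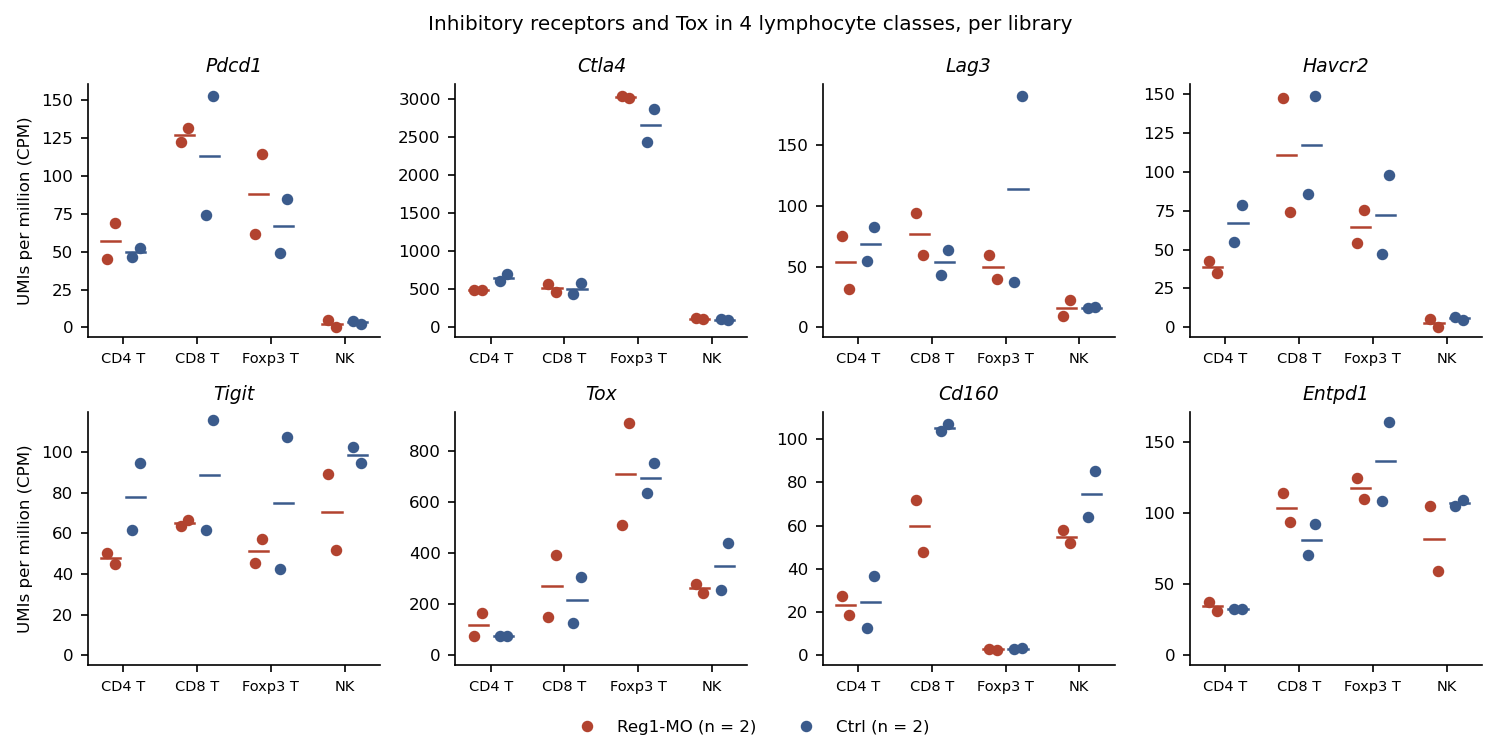
CPM of each gene in 4 lymphocyte classes, 1 point per library, with the group mean as a line (Reg1-MO left, Ctrl right, n = 2 each). Cd160 in CD8 T-like cells (71.7 and 47.8 CPM in Reg1-MO, against 104 and 107 CPM in Ctrl) and Ctla4 in CD4 T-like cells separate by group, while the high Ctrl point of Lag3 in Foxp3 T-like cells is 1 library.

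Tox, the nuclear factor of the set, had 75.5 and 164 CPM in Reg1-MO CD4 T-like cells, against 74.4 and 74.9 CPM in Ctrl CD4 T-like cells (log2 fold change 0.64 ± 0.29, adjusted p = 0.387). Only Reg1-MO 2 was high: without it the change was 0.02, while without Reg1-MO 1 it was 1.09 (adjusted p = 0.0154), and without Ctrl 2 the adjusted p was 0.0399. The Adk and St6gal1 subcluster, which held the most Tox, was 14.7% and 19.4% of CD4 T-like cells in Reg1-MO libraries, against 11.3% and 6.62% in Ctrl libraries. Within the Gzmk and Cd4 subcluster Tox had 71.6 and 265 CPM in Reg1-MO libraries, against 159 and 167 CPM in Ctrl libraries. CD8 T-like cells had 149 and 391 CPM in Reg1-MO libraries, against 126 and 306 CPM in Ctrl libraries (0.35 ± 0.47, adjusted p = 0.884), with both libraries numbered 2 high. Leaving out Reg1-MO 2 turned this to -0.45, and leaving out Ctrl 1 turned it to -0.18. Foxp3 T-like cells had 511 and 910 CPM in Reg1-MO libraries, against 635 and 753 CPM in Ctrl libraries (0.06 ± 0.22), which turned to -0.37 without Reg1-MO 2 and -0.06 without Ctrl 1. NK-like cells had 281 and 244 CPM in Reg1-MO libraries, against 255 and 441 CPM in Ctrl libraries (-0.39 ± 0.22, adjusted p = 0.576, and 0.083 without Ctrl 2). Against CD4 T-like cells the treatment difference of Tox was -0.82 ± 0.25 in NK-like cells (adjusted p = 0.252) and -0.50 ± 0.15 in Foxp3 T-like cells (adjusted p = 0.255). Without Ctrl 1 these reached adjusted p of 0.00259 and 0.0389, and so did that of CD8 T-like cells (-0.84, adjusted p = 0.00220, against -0.19 ± 0.28 with all libraries). Without Reg1-MO 1 the NK-like difference was -1.53 (adjusted p = 3.14e-05).

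Shares of cells with a UMI were compared after every cell was thinned to 3000 UMIs and shallower cells were left out (78 and 31 Reg1-MO, against 85 and 37 Ctrl CD4 T-like cells). Their difference had the sign of the log2 fold change for 22 of 28 genes and classes. The other 6 were Cd160 in CD4 T-like, Ctla4, Havcr2 and Pdcd1 in CD8 T-like, and Havcr2 and Entpd1 in Foxp3 T-like cells, the last with a share 3.18 percentage points higher in Reg1-MO libraries beside a log2 fold change of -0.18. Shares are given for 3 genes. Ctla4 was detected in 54.1% and 53.6% of Reg1-MO CD4 T-like cells, against 58.1% and 65.0% of Ctrl CD4 T-like cells. Tigit was detected in 13.3% and 11.5% of Reg1-MO CD4 T-like cells, against 17.9% and 23.7% of Ctrl CD4 T-like cells. Without thinning these were 24.6% and 24.0% in Reg1-MO, against 29.8% and 45.0% in Ctrl, and for Ctla4 64.7% and 66.1% in Reg1-MO, against 70.7% and 77.0% in Ctrl. Cd160 was detected in 16.7% and 9.47% of Reg1-MO CD8 T-like cells, against 23.2% and 20.7% of Ctrl CD8 T-like cells, and in 33.4% and 20.5%, against 45.9% and 39.7%, without thinning. None of these shares overlapped, and the two-sided exact permutation test with 2 against 2 libraries gave p = 0.333, the smallest it can give. These 3 genes were already without overlap in the summed UMIs of the same classes. The shares come from the same UMIs and add no separate evidence. Of all genes tested on summed UMIs, 47.6% did not overlap in CD4 T-like and 40.2% in CD8 T-like cells. Nearly every Foxp3 T-like cell held Ctla4, 96.6% and 98.0% in Reg1-MO libraries, against 95.4% and 96.6% in Ctrl libraries.

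As a background, neutrophil-like cells (medians of 5553 to 7169 UMIs, against 6825.5 to 7012 in CD4 T-like cells) held Ctla4 in 0.25% to 1.27% and Tigit in at most 0.32% of thinned cells per library. Entpd1 was in 47.1% to 51.4% of neutrophil-like cells, which express it, and gives no such background.

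Detected receptors were counted per cell, 7 at most, with the ectoenzyme Entpd1 counted among them. The mean count is the sum of the shares of cells with a UMI of each, so it adds no separate evidence to those shares. Thinned CD4 T-like cells held on average 1.07 and 1.00 receptors in Reg1-MO libraries, against 1.12 and 1.38 in Ctrl libraries, without overlap. CD8 T-like cells held 1.81 and 1.43 in Reg1-MO libraries, against 1.51 and 2.06 in Ctrl libraries, and Foxp3 T-like cells 1.68 and 1.88 in Reg1-MO libraries, against 1.57 and 2.12 in Ctrl libraries, both with overlap. NK-like cells held 0.73 and 0.60 in Reg1-MO libraries, against 0.90 and 0.81 in Ctrl libraries. Cells with 3 or more receptors made up more of the CD8 T-like than of the CD4 T-like class in every library, at 29.2% and 16.3% in Reg1-MO libraries, against 17.4% and 36.8% in Ctrl libraries. In CD4 T-like cells they were 7.92% and 5.43% in Reg1-MO libraries, against 7.92% and 12.6% in Ctrl libraries. Among CD4 T-like cells the Ccl1, Nrgn, Csf2 subcluster stood out, with 21.3% and 16.4% of such cells in Reg1-MO libraries, against 23.2% and 22.4% in Ctrl libraries, while no other CD4 subcluster exceeded 8.89% in any library.

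Receptor numbers were also set beside Tox detection. In CD4 T-like cells those with a Tox UMI held 1.22 and 1.15 receptors in Reg1-MO libraries, against 1.05 and 0.96 for cells without one, and 1.18 and 1.48 in Ctrl libraries, against 1.12 and 1.37. Among CD8 T-like cells this order held in 3 of 4 libraries and turned in Reg1-MO 1 (1.75 with and 1.82 without a Tox UMI). Foxp3 T-like and NK-like cells had the opposite order in 3 of 4 libraries each, for example 1.81 with and 2.07 without a Tox UMI in Foxp3 T-like cells of Reg1-MO 2. At 1500 UMIs the order also turned in CD4 T-like cells of Ctrl 2 (0.931 with and 0.943 without). These are averages over cells of 1 library and carry no test.

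**Figure D5:**
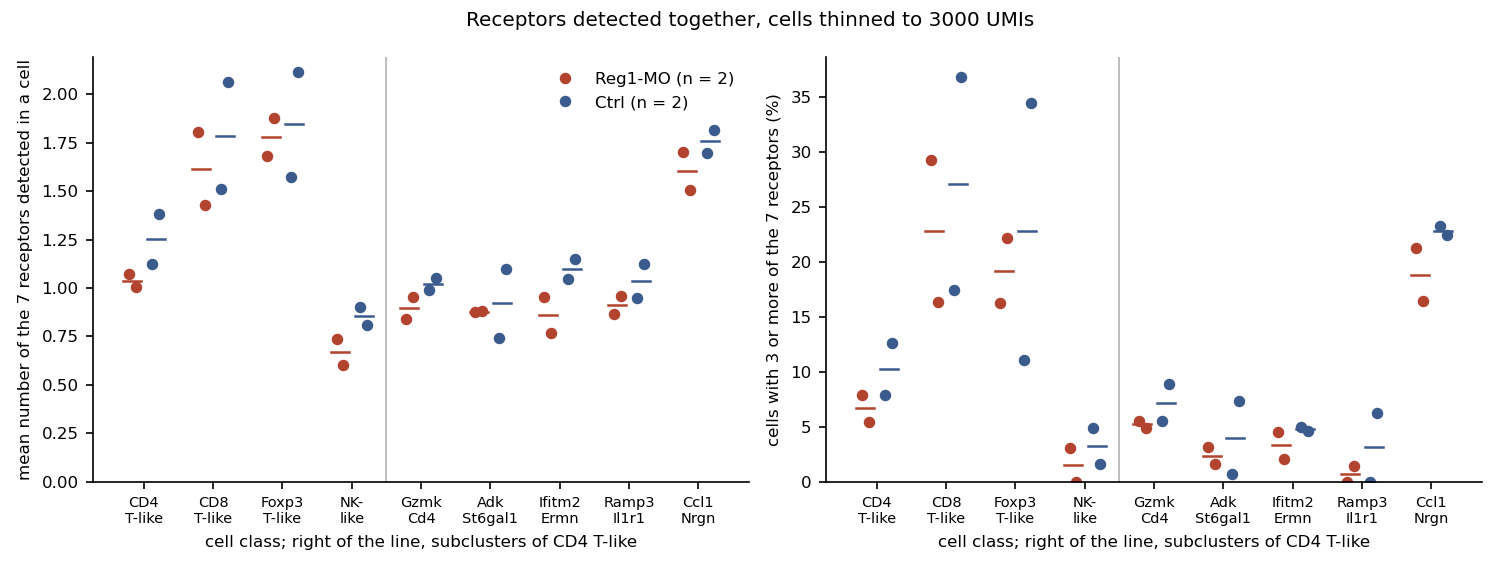
Left, mean number of the 7 receptors detected in a cell, and right, share of cells with 3 or more, in cells thinned to 3000 UMIs, 1 point per library with the group mean as a line (n = 2 each). Reg1-MO points lie below Ctrl points in CD4 T-like cells (1.07 and 1.00, against 1.12 and 1.38), and CD8 T-like and Foxp3 T-like cells overlap.

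The genes with the most similar pattern over 28 sums (7 classes by 4 libraries, Pearson r of log2(CPM + 1), 8305 genes compared) were Leprotl1, Il2ra and Icos for Ctla4 (0.988 to 0.979) and Klrd1, Ncald and Klrc1 for Cd160 (0.971 to 0.970). Il2ra and Icos encode receptors of activated and regulatory T cells, and Klrd1 and Klrc1 form the inhibitory receptor CD94-NKG2A of cytotoxic cells. Tox was most like Gimap7, Gimap8 and Zdhhc15 (0.982 to 0.977), Tigit most like Jakmip1, Gpr174 and Zdhhc15 (0.993 each), and Pdcd1 most like Plcg1, Klk8 and Slamf1 (0.949 to 0.933). For Lag3 they were Cmtm4, Rhoh and Phgdh (0.931 to 0.910), for Havcr2 Tspan31, P2rx7 and Atic (0.946 to 0.927) and for Entpd1 Sipa1l2, Tcn2 and Rab20 (0.909 to 0.892). The 28 points share libraries and classes, and the values describe the pattern across classes.

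Genes around the receptors were read from 7 lists, and in CD4 T-like, CD8 T-like and NK-like cells no member of any list was called by edgeR. DESeq2 called 1 member each in CD4 T-like (Il7r) and CD8 T-like cells (Klrc1). Other inhibitory receptors gave 0 called of 12, 13, 11 and 8 members tested in CD4 T-like, CD8 T-like, Foxp3 T-like and NK-like cells, with median log2 fold changes of 0.09, 0.12, 0.29 and 0.06. Klrc1, a chain of CD94-NKG2A, had 331 and 283 CPM in Reg1-MO CD8 T-like cells, against 161 and 187 CPM in Ctrl CD8 T-like cells (0.86 ± 0.15, adjusted p = 0.328 with edgeR and 0.0123 with DESeq2). Transcription factors linked to Tox and to activation gave 0 called of 18, 17, 17 and 15 (medians -0.06, 0.05, 0.09 and -0.17). Ligands and adenosine partners gave 0 called of 11, 9, 9 and 6 in these classes and 0 of 14 in monocyte and macrophage-like cells. Of all 13292 genes tested in the latter, edgeR called 0, and 2384 had an unadjusted p under 0.05. DESeq2 called 560 of them, and 3 of the 14 on this list. There Cd86, a ligand of Ctla4, had 925 and 938 CPM in Reg1-MO libraries, against 837 and 744 CPM in Ctrl libraries (0.27 ± 0.13, adjusted p = 0.336). Activation receptors gave 0 called of 10, 10, 10 and 8 (medians -0.04, 0.05, 0.12 and 0.16), and naive and memory genes 0 of 8, 7, 7 and 5 (medians 0.41, 0.11, 0.21 and 0.12). Il7r, the receptor of the survival cytokine IL-7, had 469 and 479 CPM in Reg1-MO CD4 T-like cells, against 651 and 680 CPM in Ctrl CD4 T-like cells (-0.50 ± 0.09, adjusted p = 0.150 with edgeR and 0.00268 with DESeq2).

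The calls of edgeR on the lists came from effector and cell cycle genes in Foxp3 T-like cells, where it called 0.484% of all 8683 genes. Ifng, the cytokine interferon gamma, rose there, with 191 and 145 CPM in Reg1-MO libraries, against 23.9 and 28.5 CPM in Ctrl libraries (log2 fold change 2.72 ± 0.23, adjusted p = 0.00405), as 1 of 12 effector genes. Of 8 cell cycle genes 3 fell, Mki67 by 1.84 and Stmn1 by 1.35 on the log2 scale, and Top2a (adjusted p = 0.0279 each). Mki67 had 49.6 and 63.7 CPM in Reg1-MO libraries, against 264 and 147 CPM in Ctrl libraries, and Top2a 96.1 and 76.1 CPM in Reg1-MO libraries, against 276 and 197 CPM in Ctrl libraries. The effector list in CD4 T-like cells gave 0 called of 13 (median 0.56), in CD8 T-like cells 0 of 12 (0.23) and in NK-like cells 0 of 10 (-0.15). The cell cycle list gave 0 of 7 (0.08), 0 of 7 (0.55) and 0 of 3 (-0.09). In Foxp3 T-like cells the medians were 0.50 and -1.38. DESeq2 called 3 more members there, Csf2 higher and Cdk1 and Il7r lower, beside 0.832% of the genes that it gave an adjusted p. The count of 42 called genes in this class was 2 without cells that held Mki67 or Top2a UMIs and 4 without the cells richest in myeloid markers. It was 2 when classes came from a gate on UMIs of marker genes. For this class the gate asked for UMIs of Foxp3 and of Cd3e, Cd3d or Cd3g.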

How the data were processed

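Single-cell RNA from 4 spinal cord libraries had been captured with a 10x 3′ kit, per the labels' protocols, and the deposited matrices hold raw UMI counts per gene and barcode from Cell Ranger (version 5.0.1 per the file headers). The mm10 build and Seurat 4.0 are named in the submitters' processing notes. Barcodes under 500 UMIs or 200 genes, or above 10% mitochondrial UMIs, were dropped. Scrublet scores removed doublets at 0.8% per 1000 barcodes, since its automatic threshold marked 391. Cells were clustered with scanpy 1.11.5 (3000 variable genes, 40 components, Leiden), T and NK cells again at resolution 1, both without the 8 genes. Clusters were named from listed markers, with naming thresholds set after the clusters were seen. UMIs were summed per library and class and tested with edgeR 4.0.16 (R 4.3.3; quasi-likelihood, TMM, filterByExpr with a minimum count of 10, Benjamini-Hochberg over all genes, threshold 0.05). Standard errors are the log2 fold change over the square root of F. DESeq2 1.42.0 was an alternative, and other alternatives are given in the closing section. Differences between classes used an interaction with library as a block. Wilson 95% intervals cover counting error only. The fits were tested on simulated data.

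The 8 genes and all lists were chosen with earlier results of these data known. The rule for other names took, for each gene, the 3 genes with the highest Pearson correlation among those with a mean of at least 20 CPM in a class, and from each list the called members and otherwise the 2 with the highest mean, of which a few are printed. Conventional dendritic and microglia sums of the ligand list and receptor protein sequences were not analysed here.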

Additional observations from a re-analysis of the deposited data

Results flagged for a closer look

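Ctla4 was flagged because its treatment difference was not the same in 2 cell classes, by a test of the difference itself. The log2 fold change of Reg1-MO over Ctrl was 0.70 ± 0.09 higher in Foxp3 T-like than in CD4 T-like cells (edgeR interaction, adjusted p = 0.0113). Both classes came from the same 4 libraries. The difference stayed between 0.67 and 0.73 when each library was left out in turn. The Ccl1, Nrgn, Csf2 subcluster held 20.8% and 18.3% of CD4 T-like cells in Reg1-MO libraries, against 18.9% and 37.9% in Ctrl libraries, which overlapped. Without its cells the difference was 0.42 ± 0.12 (edgeR interaction, adjusted p = 0.226), and the call was lost. The call was also lost without cells that held Mki67 or Top2a UMIs, as given above. The Gzmk and Cd4 subcluster held 25.9% and 29.7% in Reg1-MO libraries, against 17.9% and 22.4% in Ctrl libraries. The Adk and St6gal1 and the Ramp3 and Il1r1 subclusters were also larger in both Reg1-MO libraries, and the Ifitm2 and Ermn subcluster overlapped. The part of the make-up of the class in the result was not tested.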

How the results depend on the processing

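Each comparison rested on 2 libraries per group and on 56 to 1404 cells per library and class, and the alternatives moved many calls. In each setting that leaves out a library, the lone library of its group is assumed to vary like the others. Settings with shared barcodes, with or without the Ccl1 and Csf2 subcluster, and all cell subsets of the differences between classes were added after the data were seen. Where a value moved, the cause was not tested. Library numbers did not pair the samples (correlation of same-numbered deviations -0.00084 to 0.064). The replicate block gave 33 called genes in CD4 T-like, 2 in CD8 T-like and 10 in NK-like cells and 13 in all T and NK cells, and called none of the 8 genes.

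Of 36 log2 fold changes of the 8 genes, 28 kept their direction in every setting with all libraries, and 16 when each library was left out. Genes called in CD4 T-like cells numbered 77 with DESeq2, 614 without the count filter and 5 in the Ccl1 and Csf2 subcluster alone. In CD8 T-like cells they were 15 with DESeq2, 165 without the filter and 1 with the UMI gate. In Foxp3 T-like cells they were 409 without the filter, 2 with the gate, 22 with doublets kept, 4 without carry-over cells, 2 without cells holding Mki67 or Top2a, and 69 without shared barcodes. In NK-like cells they were 11 with DESeq2, 114 without the filter, 11 with the gate and 42 without cells holding Mki67 or Top2a. In all T and NK cells they were 65 with DESeq2 and 503 without the filter. Of the 8 genes, DESeq2 called 2 in CD4 T-like cells, and without the filter 4 were called in CD4 T-like, 1 in CD8 T-like (Cd160), 1 in Foxp3 T-like (Lag3) and 1 in all T and NK cells (Tigit).

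For differences against CD4 T-like cells, CD8 T-like cells had 78 genes without the filter, 6 with the gate, and 0 without carry-over cells or without the subcluster. Foxp3 T-like cells had 207 without the filter, 82 with the gate, 44 without carry-over cells, 1 without cells holding Mki67 or Top2a, 27 with doublets kept and 35 without the subcluster. NK-like cells had 42 without the filter, 2 without carry-over cells and 10 without the subcluster. Of the 8 genes these held 4 for CD8 T-like and 2 for Foxp3 T-like cells without the filter, 0 for Foxp3 T-like cells without cells holding Mki67 or Top2a or without the subcluster, and 1 for NK-like cells with the gate.

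Leaving out 1 library at a time gave 0 to 627 called genes in CD4 T-like, 0 to 25 in CD8 T-like, 9 to 744 in Foxp3 T-like and 0 to 75 in NK-like cells, 1 to 280 in all T and NK cells, and 10 to 99, 83 to 192 and 34 to 63 for the differences of CD8 T-like, Foxp3 T-like and NK-like cells. Of the 8 genes it called 0 to 3 in CD4 T-like cells, 0 to 2 in Foxp3 T-like cells, 0 to 1 in all T and NK cells, and 0 to 4, 1 to 3 and 0 to 1 for those differences. Log2 fold changes that turned then ranged in CD4 T-like cells from -0.65 to 0.88 for Cd160, -1.15 to 0.16 for Lag3, -0.12 to 0.43 for Pdcd1 and -0.12 to 0.20 for Entpd1. In CD8 T-like cells the ranges were -0.14 to 0.24 for Ctla4, -0.63 to 0.44 for Havcr2, -0.24 to 0.78 for Pdcd1, -0.80 to 0.084 for Tigit and -0.45 to 1.07 for Tox. In Foxp3 T-like cells they were -0.43 to 0.16 for Entpd1, -0.60 to 0.46 for Havcr2, -1.84 to 0.49 for Lag3, -0.059 to 0.82 for Pdcd1, -1.06 to 0.29 for Tigit and -0.37 to 0.42 for Tox. Tox in NK-like cells ranged from -0.73 to 0.083. Over all T and NK cells the ranges were -0.15 to 0.24 for Ctla4, -0.047 to 0.36 for Entpd1, -0.84 to 0.21 for Lag3 and -0.16 to 0.86 for Tox. Differences that turned were Cd160 (-1.05 to 0.063) and Tigit (-0.095 to 0.69) for NK-like cells, Pdcd1 (-0.26 to 0.59) and Tox (-0.84 to 0.40) for CD8 T-like cells, and Entpd1 (-0.47 to 0.13), Lag3 (-1.24 to 0.50), Pdcd1 (-0.026 to 0.61) and Tigit (-0.045 to 0.69) for Foxp3 T-like cells.

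With all libraries kept, CD4 T-like log2 fold changes turned for Cd160 with DESeq2 (-0.11), the gate (-0.26), no cells holding Mki67 or Top2a (-0.035), no shared barcodes (-0.084) and no subcluster (-0.017), for Entpd1 with the gate (-0.024) and no subcluster (-0.11), for Pdcd1 with the gate (-0.038) and for Lag3 within the subcluster (0.071). Others were Havcr2 in CD8 T-like cells with DESeq2 (-0.047) and without cells holding Mki67 or Top2a (-0.0027), Tox in Foxp3 T-like cells without cells holding Mki67 or Top2a (-0.10), and Ctla4 (-0.15) and Entpd1 (0.092) in NK-like cells without carry-over cells. Differences turned for Tox with the gate (0.12 in CD8 T-like, 0.013 in Foxp3 T-like cells), for Lag3 in Foxp3 T-like cells without cells holding Mki67 or Top2a (0.11), and for Entpd1 without the subcluster in Foxp3 T-like cells (0.017) and without carry-over cells in NK-like cells (0.042). Differences in shares, in percentage points, turned with the gate for Pdcd1 in CD4 T-like (-0.147) and for Pdcd1 (2.02), Ctla4 (1.98) and Havcr2 (2.18) in CD8 T-like cells. Without thinning, Pdcd1 in CD8 T-like (0.153), Havcr2 in Foxp3 T-like (-2.57) and Lag3 in NK-like cells (0.937) turned. At 1500 UMIs, Ctla4 (0.923) and Entpd1 (-0.176) in CD8 T-like, Havcr2 (-3.95) and Tigit (2.16) in Foxp3 T-like, and Lag3 (0.886) and Tigit (0.102) in NK-like cells turned, as did the mean receptor number of NK-like cells (0.015).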

Other observations

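Gamma delta T-like cells, 212 in all and named because Trdc (739 CPM) was above Trac (288 CPM), held several of the 8 genes. Ctla4, the brake on costimulation, had 1423 and 1017 CPM there in Reg1-MO libraries, against 1538 and 2115 CPM in Ctrl libraries, so both Reg1-MO libraries were lower. Pdcd1 (PD-1) had 190 and 254 CPM in Reg1-MO libraries, against 161 and 98.6 CPM in Ctrl libraries. Tox had 334 and 240 CPM in Reg1-MO libraries, against 150 and 438 CPM in Ctrl libraries, with overlap. Lag3 was at most 11.0 CPM in any library. These cells were as few as 14 in 1 library, and no test was run on them.

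Outside the T and NK cells, Lag3 was steady in plasmacytoid dendritic-like cells, at 270 and 237 CPM in Reg1-MO libraries, against 212 and 260 CPM in Ctrl libraries. Havcr2 was carried by an unnamed cluster of 638 cells led by Ccl17 and the MHC class II gene H2-Eb1, at 171 and 130 CPM in Reg1-MO libraries, against 194 and 251 CPM in Ctrl libraries. Both Reg1-MO values of Havcr2 lay below both Ctrl values there, without a test.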
